A study of Mus musculus with 6 samples.

Results

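Guanylate-binding proteins (GBPs) and immunity-related GTPases (IRGs) are the interferon gamma-inducible GTPases of mouse cells. The members described here are the 10 gene symbols Gbp2, Gbp3, Gbp4, Gbp5, Gbp7, Iigp1, Igtp, Irgm1, Irgm2 and Tgtp1, of 24391 gene rows in the count table and 23284 in the table of FPKM (fragments scaled to transcript length and library depth). They were taken by symbol, 5 GBPs and 5 IRGs, and all 10 are listed in both tables. Tgtp1 had no reads in the count table, so 9 members passed the filter on low counts.

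RNA came from tumour-associated macrophages (TAMs) of colorectal tumours in BALB/c mice, and 6 libraries were deposited. The CD11bhi F4/80low sort gate gave 2 CCL5-/- libraries and 2 WT libraries with read counts. The CD11blow F4/80hi gate gave 1 library labelled CCL5-/- and 1 labelled WT, with FPKM values only. CCL5-/- stands for loss of the gene of the chemokine CCL5. The labels used here state no other allele or agent, no age and no way of starting the tumours. They also do not say if the replicates are different mice or pools of mice, and the p-values below then cover only how far these libraries differ, which may be technical.

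Interferon gamma, made mainly by NK and T cells, binds its receptor on macrophages and activates the kinases JAK1 and JAK2. The promoters of its target genes often hold gamma-activated sites (GAS) or interferon-stimulated response elements (ISRE), and the induced factor IRF1 binds ISRE. GBPs and IRGs are among the genes that rise most in macrophages under this cytokine, and their products gather on vacuoles that hold parasites or bacteria and help to destroy them. Igtp, Irgm1 and Irgm2 are the regulatory IRGs that restrain the others on the cell's own membranes, and Iigp1 and Tgtp1 encode effector IRGs that coat the vacuole.

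Promoter sequences are shown as a description of the members, which were taken by symbol and not by ISRE-type or GAS-type letters. The members are known as interferon gamma-inducible genes, whose promoters often hold such letters. Several are also related copies, so the shares below are not independent of the choice or of each other. RefSeq (GRCm38.p6, the C57BL/6J reference and not the BALB/c genome) gave promoters of 300 bases, 250 before and 50 after the gene start, for 8 members, which were Gbp2, Gbp3 (a pair of promoters, of which the first is shown), Gbp5, Gbp7, Igtp, Irgm1, Irgm2 and Tgtp1. The searched letters were GAAA, any 2 letters and GAAA again for the ISRE type, on either strand (read on the other strand as TTTC, any 2 letters and TTTC), and TTCNNNGAA for the GAS type, which reads the same on both strands. All 8 genes had an ISRE-type match in at least 1 promoter. By promoter 8 of 9 had one, against 3.44% of 32851 RefSeq promoters. The Gbp3 promoter that is not shown had neither motif. Of the 8 genes, 5 also had a GAS-type match, against 8.30% of all promoters for that motif alone and 0.454% for both. The stretches below run 5′ to 3′ on the strand of the gene, with 25 bases on each side of the ISRE-type match and with both motifs in capitals.
Gbp2, chr3:142620579-142620638, plus strand: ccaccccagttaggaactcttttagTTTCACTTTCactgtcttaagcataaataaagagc
Gbp3, chr3:142559974-142560033, plus strand: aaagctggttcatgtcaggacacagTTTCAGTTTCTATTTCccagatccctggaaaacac
Gbp5, chr3:142496744-142496803, plus strand: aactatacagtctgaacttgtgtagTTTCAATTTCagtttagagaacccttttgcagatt
Gbp7, chr3:142530258-142530317, plus strand: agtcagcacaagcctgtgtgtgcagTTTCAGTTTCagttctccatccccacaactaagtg
Igtp, chr11:58199497-58199556, plus strand: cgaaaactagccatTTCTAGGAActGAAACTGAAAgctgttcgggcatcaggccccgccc
Irgm1, chr11:48871416-48871475, minus strand: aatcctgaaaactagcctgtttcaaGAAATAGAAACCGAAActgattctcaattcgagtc
Irgm2, chr11:58214888-58214947, plus strand: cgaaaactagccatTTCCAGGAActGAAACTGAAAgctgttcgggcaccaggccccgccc
Tgtp1, chr11:48992289-48992348, minus strand: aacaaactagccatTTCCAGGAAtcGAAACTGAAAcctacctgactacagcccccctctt

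The ISRE-type letters stood on the opposite strand in the 4 GBP promoters and on the gene's own strand in the 4 IRG promoters. Of 8 other family genes with a promoter 5 had a match, on the opposite strand in Gbp2b and the IRG Gm12250 and on the gene's own strand in Tgtp2, Gm12185 and 9930111J21Rik1. In Igtp, Irgm2 and Tgtp1 the GAS-type letters ended 2 bases before the ISRE-type letters. In Gbp3 and Irgm1 a pair of ISRE-type matches overlapped, which gives the longer run of capitals there. Gbp5 had its ISRE-type match 165 bases before the start, and the first match of the other genes lay between 30 and 77 bases before it. Gbp2, Gbp3 and Irgm1 had no GAS-type letters in this window. A match is a description of letters and not a bound site, and the files hold no binding data.

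**Figure D1:**
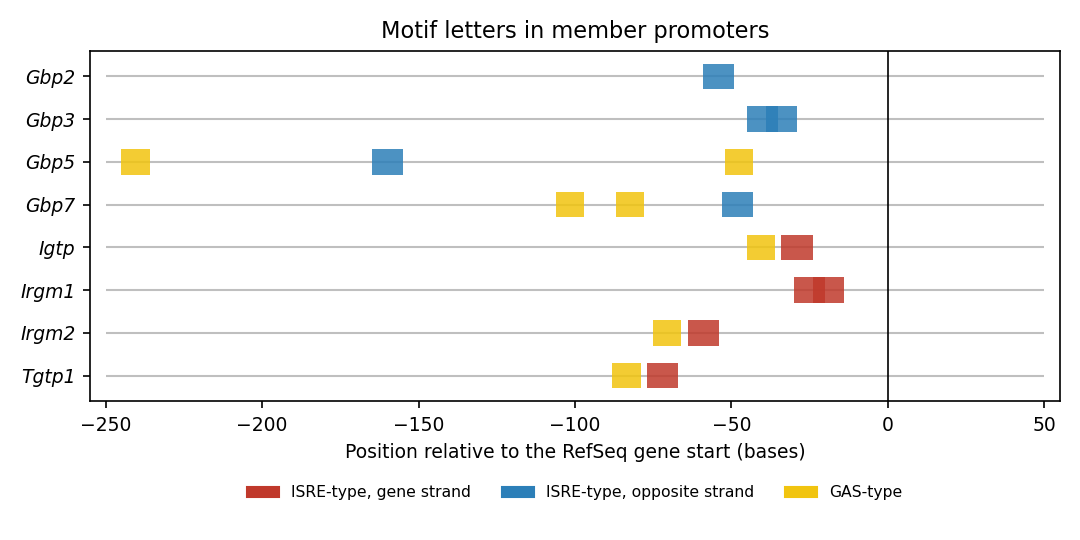
Positions of the searched letters in the promoters of 8 members, in bases from the RefSeq gene start at 0 (250 before to 50 after), 1 line per gene. Red and blue boxes are ISRE-type matches on the gene's strand and on the opposite strand, and yellow boxes are GAS-type matches; the 4 GBPs have blue and the 4 IRGs red boxes, and Igtp, Irgm2 and Tgtp1 have the yellow box just before the red one.

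The libraries were first checked against their labels. Ccl5 had 35 and 82 reads in CCL5-/- replicates 1 and 2, against 255 and 3976 in WT replicates 1 and 2. It was lower in CCL5-/- in both pairs, with a log2 change of -4.64 over the 4 libraries in edgeR (SE 0.69, adjusted p = 1), and of -1.68 with an adjusted p of 2.6e-05 in the authors' deposited table. All 10 macrophage markers had reads in each F4/80low library, with summed levels from 1692 to 2206 CPM (reads scaled to library depth, with edgeR's TMM factors for library composition). The sum hides opposite shifts. By replicate number 3 of the 10 were called higher in replicate 2 and 3 lower (edgeR), against 13.9% and 18.0% of tested genes. Itgam, the gene of CD11b, had 580 and 144 CPM in CCL5-/- replicates 1 and 2, against 598 and 180 CPM in WT replicates 1 and 2. C1qa had 241 and 469 CPM in CCL5-/- and 214 and 628 CPM in WT. The total counts ranged from 9280635 to 22411342. The ribosomal RNA precursor Rn45s took 50.03% and 58.44% of counts in CCL5-/- and WT replicate 1, but 1.38% and 0.844% in CCL5-/- and WT replicate 2, which left 3857011 reads for other genes in WT replicate 1, the shallowest library. The libraries therefore split by replicate number, and differences by genotype are given below within each pair of same-numbered libraries.

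The F4/80hi values were not independent of replicate 1. Each F4/80hi title carries the letters of the genotype opposite to its label, and Ccl5 goes against the labels, with 145 FPKM under the label CCL5-/- and 15.7 FPKM under the label WT. The FPKM ratio of these libraries predicted the split of reads between WT replicate 1 and CCL5-/- replicate 1 with a median chi-square of 0.334 over 6677 genes with 20 to 400 reads, below the 0.455 of independent reads, while for the 11 other ways to match the F4/80low libraries it was 3.58 or more. Thus the ratio of F4/80hi labelled CCL5-/- to F4/80hi labelled WT matched that of WT replicate 1 to CCL5-/- replicate 1 of F4/80low. The mismatch was less than the sampling noise. The check compared ratios and not single libraries, and on this ground these are counted as the same 2 libraries. Which gate they came from is not settled by the files, so replicate number and gate cannot be told apart.

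The first comparison set the GTPases of CCL5-/- F4/80low TAMs against those of WT. None passed in either direction over the 4 libraries, and the pairs had opposite signs. In replicate 1 all 9 tested members were higher in CCL5-/- (50.6% of 12710 tested genes were), and in replicate 2 all 9 were lower (52.3% of tested genes). Both together held for 9 of 9 members and for 25.8% of tested genes. The median difference, CCL5-/- minus WT in log2 CPM, was 1.12 for replicate 1 and -0.70 for replicate 2, against 0.01 and -0.02 over all tested genes. Of the 9 members 5 were at least 2-fold higher in CCL5-/- in replicate 1 (3.95% of tested genes), and 2 were at least 2-fold lower in replicate 2 (5.05%). Each pair has 1 library per genotype, so these differences have no replicate check and no test. Fewer cells of a type and less RNA per cell cannot be told apart in these sorted pools.

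**Figure D2:**
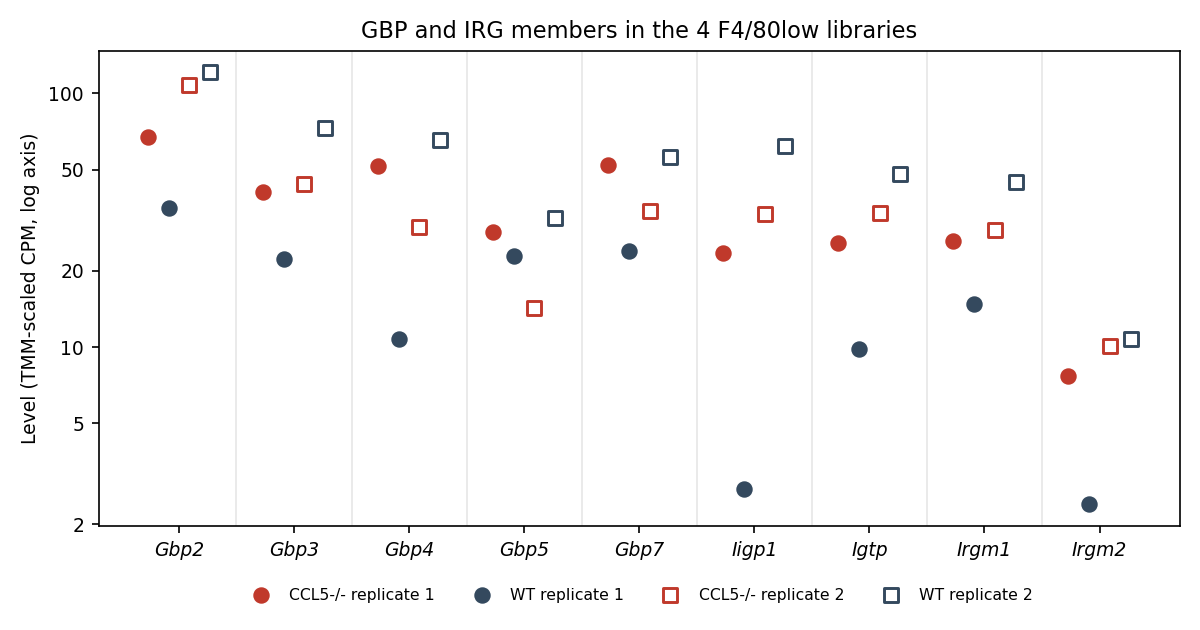
Level of each of the 9 tested members in TMM-scaled CPM on a log axis, 1 point per F4/80low library, with filled circles for replicate 1 and open squares for replicate 2, CCL5-/- in red and WT in dark blue. WT replicate 2 is the highest point for all 9 genes and WT replicate 1 the lowest for 8, with Gbp5 the exception.

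Gbp2, a GBP anchored to membranes by a lipid on its C-terminal end, had 67.4 and 108 CPM in CCL5-/- replicates 1 and 2, against 35.4 and 121 CPM in WT replicates 1 and 2. Gbp3, from the same cluster on chromosome 3, had 40.8 and 43.8 CPM in CCL5-/- and 22.3 and 72.9 CPM in WT. Both genes had the WT libraries at the extremes and the CCL5-/- libraries between them. Gbp7, in the same cluster, had 52.0 and 34.5 CPM in CCL5-/- replicates 1 and 2, against 23.9 and 56.2 CPM in WT replicates 1 and 2. Gbp5, a GBP known for promoting inflammasome assembly, had 28.4 and 14.3 CPM in CCL5-/- and 22.8 and 32.3 CPM in WT. Gbp5 differed from the other members in that its lowest library was CCL5-/- replicate 2.

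Gbp4, from the chromosome 5 cluster, had 444 and 812 reads in CCL5-/- replicates 1 and 2, against 63 and 1985 in WT replicates 1 and 2. These gave 51.6 and 29.8 CPM in CCL5-/- and 10.8 and 65.3 CPM in WT. It had the widest spread among the 5 GBP members, with a difference of 2.24 for replicate 1 and -1.13 for replicate 2 (log2 CPM, CCL5-/- minus WT).

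Among the IRGs, Iigp1 had 201 and 909 reads in CCL5-/- replicates 1 and 2, against 16 and 1886 in WT replicates 1 and 2. The levels were 23.4 and 33.4 CPM in CCL5-/- and 2.75 and 62.0 CPM in WT. With 16 reads in WT replicate 1, the replicate 1 pair of Iigp1 was the widest of any tested member, 8.50-fold higher in CCL5-/- (exact 95% interval 5.11 to 15.2, counting error only), while in replicate 2 CCL5-/- was at 0.538 of WT (0.497 to 0.583).

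The regulatory IRGs moved less widely. Igtp had 25.6 and 33.7 CPM in CCL5-/- replicates 1 and 2, against 9.79 and 48.0 CPM in WT replicates 1 and 2. Irgm1 had 26.3 and 28.9 CPM in CCL5-/- and 14.8 and 44.7 CPM in WT, and Irgm2 had 7.67 and 10.1 CPM in CCL5-/- and 2.40 and 10.8 CPM in WT. For all 3 genes both CCL5-/- libraries lay between the WT libraries. The counting interval of the CCL5-/- to WT ratio held 1 for Irgm2 in replicate 2 alone (0.931, 0.790 to 1.10), and came closest to 1 otherwise for Gbp5 in replicate 1 (1.24, 1.001 to 1.55).

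WT replicate 2 was the highest library in 9 of 9 members, against 25.0% of tested genes, and WT replicate 1 the lowest in 8 of 9, against 28.0%. Both held in 8 of 9 members, against 12.6% of tested genes. The groups thus overlapped in every tested member, while 8.36% of tested genes had both CCL5-/- libraries above both WT libraries and 8.24% had both below. In edgeR's quasi-likelihood test of genotype over the 4 libraries 0 of 9 members passed, and 0% of 12710 genes did (0 genes at an adjusted p under 0.05 and 41, or 0.323%, at an unadjusted p under 0.05). DESeq2 called 1 gene, Ccl5. In edgeR Ccl5, the gene lost in CCL5-/-, did not pass either (unadjusted p = 7.6e-04). A member that did not pass is thus not shown to be unchanged. The members' log2 changes ran from -0.38 to 0.39 with standard errors from 0.47 to 1.19, and their edgeR unadjusted p from 0.456 to 0.975. In the authors' deposited table the adjusted p was 0.9999 for each of these 9 genes, and Tgtp1 had none.

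**Figure D3:**
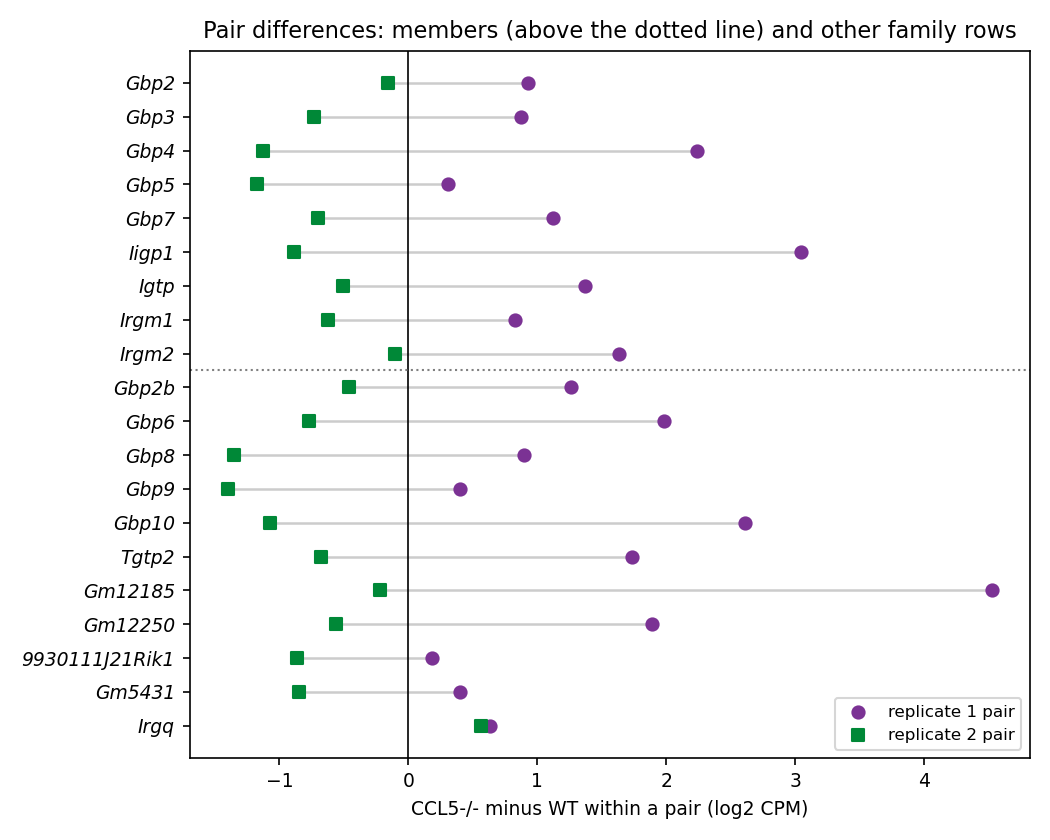
Difference between CCL5-/- and WT within the replicate 1 pair (circles) and the replicate 2 pair (squares), in log2 CPM, for the 9 tested members above the dotted line and 11 other GBP and IRG rows below it, with a line joining the pairs of a gene. Every member has its circle right of 0 and its square left of 0, and among the others Irgq alone has both on the right; the circle of Gm12185 rests on 0 reads in WT replicate 1 and depends on the prior count.

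The result rested on single libraries. Without WT replicate 1 all 9 members were lower in CCL5-/- (median log2 change -0.67, range -1.11 to -0.26), and without WT replicate 2 the median was 1.31 (-0.10 to 3.37), with 8 higher. None passed in these edgeR fits either (lowest adjusted p = 1 and 0.319). With 3 libraries, 1 genotype has a single replicate number, and its lone library is assumed to vary like the others.

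Set against each other by replicate number, the members were mostly higher in the replicate 2 libraries. The WT libraries carried most of this: replicate 2 exceeded replicate 1 by a median of 0.14 in CCL5-/- (range -0.98 to 0.68) and of 1.77 in WT (0.50 to 4.44), in log2 CPM. In edgeR with a genotype term 1 of 9 members passed, Gbp2, higher in replicate 2 (log2 change 1.22, SE 0.27, adjusted p = 0.0045), while 31.8% of all tested genes passed, 13.9% higher and 18.0% lower. Irgm2 (1.12, SE 0.40, adjusted p = 0.051) and Irgm1 (0.83, SE 0.33, adjusted p = 0.085) did not pass. Iigp1 had a log2 change of 2.07 with a standard error of 1.64, and its replicate 2 library exceeded replicate 1 by 0.51 in CCL5-/- and by 4.44 in WT (log2 CPM).

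Levels of different members were compared per kilobase of GENCODE M21 exon sequence. Gbp2 was the highest member in every library, at 26.8 and 43.0 CPM per kilobase in CCL5-/- replicates 1 and 2, against 14.1 and 48.1 in WT replicates 1 and 2. On this scale Igtp and Gbp3 came next in all 4 libraries and changed places. Igtp was at 12.6 and 16.7 in CCL5-/- and 4.84 and 23.8 in WT. Gbp3 was at 12.5 and 13.4 in CCL5-/- and 6.84 and 22.3 in WT. The low end differed by library. Irgm2 was lowest in CCL5-/- replicate 1 (2.08) and WT replicate 2 (2.94), Gbp5 in CCL5-/- replicate 2 (2.16) and Iigp1 in WT replicate 1 (0.472). Iigp1 stood at 10.6 in WT replicate 2, so its place among the members depended on the library.

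Tgtp1 could not be read from the counts. Of the 100-base stretches in its GENCODE transcripts, 70.3% also stand in transcripts of its near-identical copy Tgtp2. Tgtp1 had 0 reads in all 4 libraries, and this sets no upper limit on its transcript, since reads of shared stretches need not be counted for it. Tgtp2 had 135 and 544 reads in CCL5-/- replicates 1 and 2, against 27 and 977 in WT replicates 1 and 2, and the sources used here do not give how reads were shared between the copies. The other members shared between 0 and 10.01% of such stretches with other genes, Gbp7 the most.

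Other rows of both families, named whatever their values, shared the signs of the pairs more than the order of the libraries. Of 11 tested rows 10 were higher in CCL5-/- in replicate 1 and lower in replicate 2, against 25.8% of tested genes, with medians of 1.26 and -0.77. In 6 of the 11 WT replicate 2 was the highest and WT replicate 1 the lowest library, against 12.6% of tested genes. Gbp9 was another case, with 26.4 and 6.61 CPM in CCL5-/- replicates 1 and 2, against 19.9 and 17.6 CPM in WT replicates 1 and 2. 9930111J21Rik1 had 27 and 9 reads in CCL5-/- and 16 and 21 in WT, and it alone of the 11 was called by replicate number, lower in replicate 2 (edgeR log2 change -2.57, SE 0.65, adjusted p = 0.0073). Gbp10 had 50 and 91 reads in CCL5-/- replicates 1 and 2, against 5 and 217 in WT replicates 1 and 2, and shares most of its stretches with other genes. Gm12250, which encodes the effector Irgb10, had 52 and 130 reads in CCL5-/- and 9 and 215 in WT. Gm12185, another IRG, had 21 and 48 reads in CCL5-/- and 0 and 63 in WT, where 0 reads in replicate 1 allow up to 0.515 CPM (3 counts, counting error only). Irgq, an IRG-like gene not known as interferon-inducible, was the exception in the signs of the pairs, at 17.3 and 13.0 CPM in CCL5-/- and 11.2 and 8.78 CPM in WT. Irgq was higher in CCL5-/- in both pairs (0.63 and 0.56, log2 CPM) and did not pass in edgeR (log2 change 0.61, SE 0.38, adjusted p = 1). Gbp11 and 9930111J21Rik2 had too few reads for a test. Gvin1, listed with these rows but of a separate family of interferon-inducible GTPases, had no reads.

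**Figure D4:**
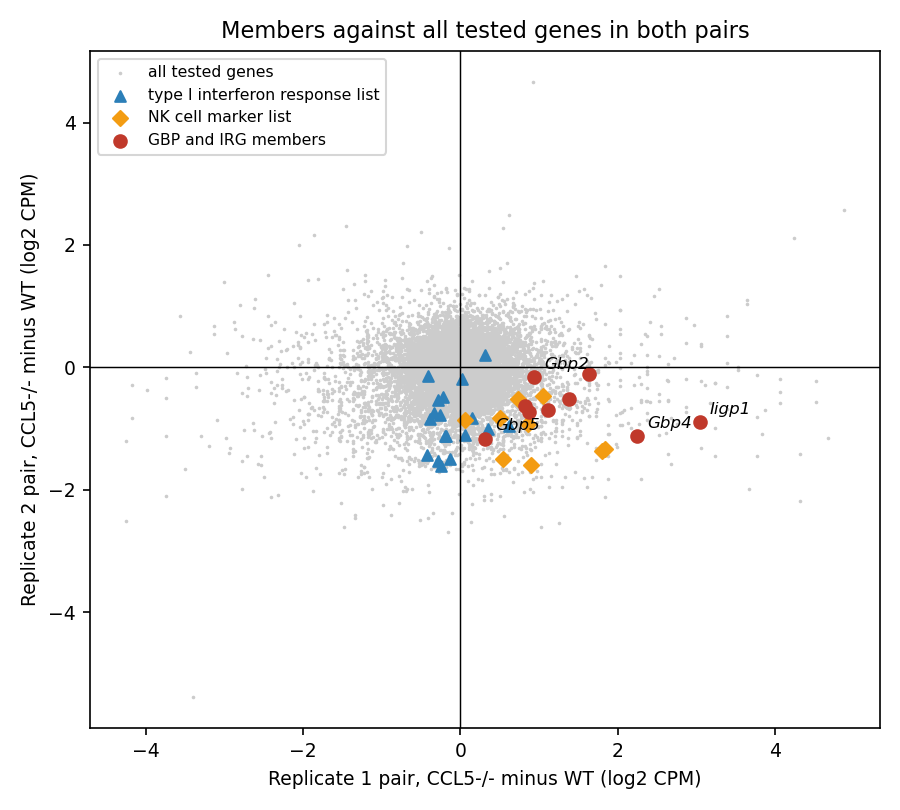
Difference between CCL5-/- and WT in the replicate 1 pair (x axis) and the replicate 2 pair (y axis), in log2 CPM, for all 12710 tested genes (grey), the type I interferon response list (triangles), the NK cell marker list (diamonds) and the 9 tested members (red circles). All members lie in the lower right part, which holds 25.8% of tested genes.

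The genes nearest to the mean profile of the tested members were sought among 8259 genes with a mean log2 CPM of at least 3. Distance was taken between centred log2 CPM over the 4 libraries. The nearest was Gbp2b, itself a GBP, at a distance of 0.182. It had 63.6 and 73.7 CPM in CCL5-/- replicates 1 and 2, against 26.5 and 101 CPM in WT replicates 1 and 2. The next were Pla2g16 (0.256), the monocyte chemokine genes Ccl2 (0.293) and Ccl7 (0.294), Snapc5 (0.387), Nrg1 (0.390), the granzyme gene Gzmb (0.423) and Exoc3l4 (0.435). Ccl2 had 1386 and 1551 CPM in CCL5-/- replicates 1 and 2, against 569 and 1875 CPM in WT replicates 1 and 2. With 4 points a small distance is a description of these libraries only.

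The interferon gamma pathway list held 33 genes, all tested. For genotype 0 passed in edgeR in either direction, and the lowest unadjusted p was 0.122. In the replicate 1 pair 24 of 33 were higher in CCL5-/- (median 0.19), in the replicate 2 pair 30 of 33 were lower (median -0.42), and 23 did both, against 25.8% of tested genes. The shift of this list was smaller than the members' 1.12 and -0.70 and uneven over its roles.

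The ligand gene Ifng had 16 and 114 reads in CCL5-/- replicates 1 and 2, against 10 and 325 in WT replicates 1 and 2. It was thus lower in CCL5-/- in replicate 2 (0.392 of WT, interval 0.314 to 0.487), and in replicate 1 the counting interval of the ratio (1.08, 0.462 to 2.67) held 1. Il12b, a subunit of the inducers IL-12 and IL-23, was lower in CCL5-/- in both pairs (-0.82 and -0.71). The other inducer genes of the list differed from it. Il12a had -2.06 and 0.15, the opposite of the members' signs. Il18 (0.11 and -0.69) and Il15 (0.14 and -0.33) had the members' signs, with a small difference in replicate 1. The receptor genes Ifngr1 (-0.23 and -0.14) and Ifngr2 (-0.19 and -0.11) and the kinase gene Jak1 (-0.18 and -0.17) had small differences of the same sign in both pairs. Jak2, the other kinase gene, had a wider one in replicate 2 (-0.26 and -0.78). All 4 were lower in CCL5-/- in both pairs and did not show the members' pattern.

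Of the 5 genes of downstream factors 4 did, with Ciita, the class II transactivator gene, as the exception (-0.05 and -0.95). Irf1 had 138 and 138 CPM in CCL5-/- replicates 1 and 2, against 77.6 and 169 CPM in WT replicates 1 and 2. Its CCL5-/- libraries lay between the WT libraries. Batf2, a factor induced by interferon gamma, had 0.80 and -0.44, and Nlrc5, the transactivator of class I antigen presentation genes, had 0.65 and -0.55 (log2 CPM, replicate 1 first). The feedback inhibitors Socs1 (-0.08 and 0.15), Socs3 (0.10 and -0.05) and Ptpn2 (0.16 and -0.21) had small differences in both pairs. Socs3 and Ptpn2 had the members' signs.

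Of the 16 other targets 14 were higher in the replicate 1 pair and lower in the replicate 2 pair. Cxcl9, a chemokine gene that depends on interferon gamma, had the widest spread, with 369 and 3165 reads in CCL5-/- replicates 1 and 2, against 17 and 7503 in WT replicates 1 and 2. Its pair differences were 3.83 and -1.08. Serpina3g, a protease inhibitor gene, had 20.8 and 27.3 CPM in CCL5-/- and 5.15 and 67.6 CPM in WT. Cxcl10, which type I interferon also induces, was close to level in both pairs (-0.14 and -0.27). The immunoproteasome genes Psmb8 (0.54 and -0.37) and Psmb9 (0.73 and -0.45) and the peptide transporter genes Tap1 (0.41 and -0.36) and Tap2 (0.30 and -0.34) had the members' signs at smaller size.

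**Figure D5:**
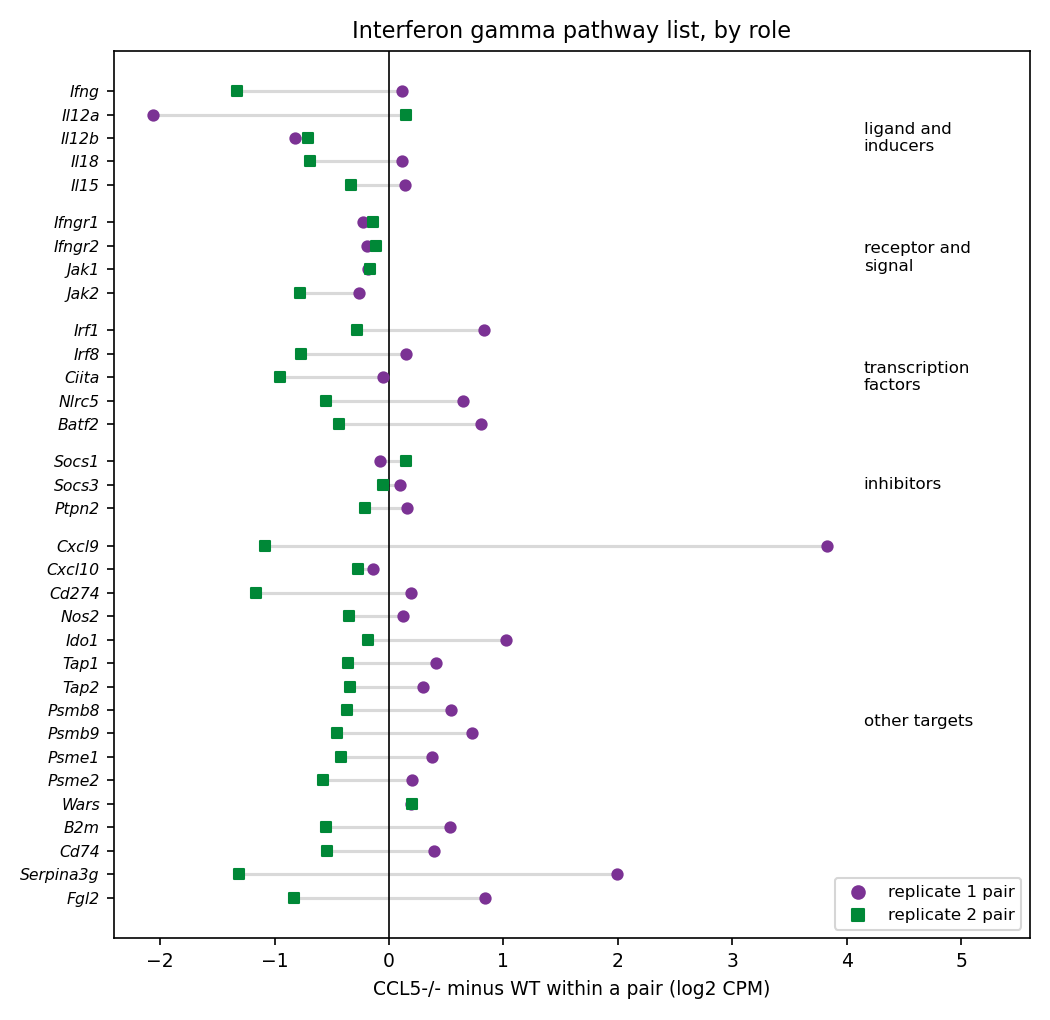
Difference between CCL5-/- and WT in the replicate 1 pair (circles) and the replicate 2 pair (squares), in log2 CPM, for the 33 genes of the interferon gamma pathway list, grouped by role. The receptor and kinase genes Ifngr1, Ifngr2 and Jak1 lie near 0 in both pairs and Jak2 left of 0, while Cxcl9 runs from -1.08 to 3.83.

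By replicate number 13 of the 33 pathway genes were called higher in replicate 2 and 2 lower, with edgeR, against 13.9% and 18.0% of all tested genes. Psmb9 (log2 change 1.63, SE 0.29, adjusted p = 0.0012) and Ifng (1.87, SE 0.44, adjusted p = 0.0051) were among those that were higher. Nlrc5 (-0.93, SE 0.28, adjusted p = 0.028) and Cd274, which encodes PD-L1 (-0.92, SE 0.31, adjusted p = 0.045), were those that were lower. Cd274 had 212 and 70.2 CPM in CCL5-/- replicates 1 and 2, against 186 and 157 CPM in WT replicates 1 and 2, and pair differences of 0.19 and -1.16.

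The type I interferon response list did not share the pattern of the replicate 1 pair. Its 18 genes had a median of -0.21 there, with 6 higher in CCL5-/- (50.6% of tested genes were). In the replicate 2 pair the median was -0.90, with 17 lower (52.3% of tested genes). In 2 of the 18 both CCL5-/- libraries lay between WT replicate 1 as the lowest and WT replicate 2 as the highest. This is close to the 12.6% of all tested genes, and it held for 8 of 9 members. The summed level of the list was 881 and 666 CPM in CCL5-/- replicates 1 and 2, against 934 and 1349 CPM in WT replicates 1 and 2. The difference between this list and the members was not tested.

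NK cell markers moved with the members, and T cell and macrophage markers did so in part. The 10 NK cell markers summed to 189 and 181 CPM in CCL5-/- replicates 1 and 2, against 108 and 423 CPM in WT replicates 1 and 2, so they had the members' order at the extremes. All 9 tested NK markers were higher in CCL5-/- in replicate 1 (median 0.86) and lower in replicate 2 (median -0.93). Both together held for 25.8% of tested genes. Klra8 was at 0 in every library. Gzma and Gzmb gave the largest parts of the sum. The counting interval of the replicate 1 ratio held 1 for Ncr1 (1.05, 0.462 to 2.47) and for Klrb1c, which had 2 reads in WT replicate 1. Gzma, a granzyme gene, had 64.6 and 65.2 CPM in CCL5-/- and 34.7 and 196 CPM in WT, and Ncr1, a defining NK receptor gene, had 1.98 and 3.86 CPM in CCL5-/- and 1.89 and 7.10 CPM in WT. The 9 listed T cell markers summed to 45.3 and 37.6 CPM in CCL5-/- and 32.0 and 75.9 CPM in WT, with reads for all 9 in each library. Of these 9, 7 were higher in CCL5-/- in replicate 1 and lower in replicate 2, against 25.8% of tested genes. So were 6 of the 10 macrophage markers, with smaller medians of 0.19 for replicate 1 and -0.41 for replicate 2. Their sums were 2008 and 1692 CPM in CCL5-/- replicates 1 and 2, against 1718 and 2206 CPM in WT replicates 1 and 2. The part of these cells in the result was not tested.

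Neutrophil markers, 9 of 10 listed and all with reads, summed to 607 and 297 CPM in CCL5-/- replicates 1 and 2, against 3428 and 507 CPM in WT replicates 1 and 2. WT replicate 1, where 8 of 9 members were lowest, thus had the highest neutrophil sum and the largest Rn45s share. The 6 hepatocyte markers summed to 118 and 0.220 CPM in CCL5-/- replicates 1 and 2, against 1.72 and 0.756 CPM in WT replicates 1 and 2, and only CCL5-/- replicate 1 had reads for all 6. The endothelial list summed to between 14.9 and 24.4 CPM and the epithelial list to between 17.4 and 32.1 CPM over the 4 libraries. In the replicate 1 pair 0 of 9 neutrophil and 0 of 6 endothelial markers were higher in CCL5-/-, against 50.6% of tested genes. The part of these markers in the result was not tested.

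The second comparison was between the labels of the F4/80hi gate. All 10 members were lower under the label CCL5-/- than under the label WT, as were 52.3% of 11670 genes with at least 1 FPKM in either library. The members' median difference was -1.06 in log2(FPKM + 1), a scale that understates changes of low genes. Of the 10 members 6 were at least 2-fold lower on that scale, as were 1.58% of the 11670 genes. Iigp1 had 2.16 FPKM under the label CCL5-/- and 15.1 FPKM under the label WT, a difference of -2.35. The authors' bounds of these values did not overlap (0.0807 to 4.23 and 5.67 to 24.5). The bounds of Tgtp1 did not overlap either (0 to 1.05 and 1.62 to 9.88). Those of all other members overlapped, as for Gbp2 (8.97 to 36.6 and 17.7 to 72.0). The share of all genes without overlap is not given here. Tgtp1 had 0.430 FPKM under the label CCL5-/- and 5.75 FPKM under the label WT, and Gbp4 had 4.33 FPKM under CCL5-/- and 19.3 FPKM under WT. Gbp2, the highest member, had 22.8 FPKM under CCL5-/- and 44.9 FPKM under WT. Gbp5 was nearest to level, at 10.02 FPKM under CCL5-/- and 12.1 FPKM under WT.

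These FPKM values are a second reading of the replicate 1 pair under crossed labels and add no replicate to it. For Iigp1 the FPKM ratio was -2.81 on the log2 scale, labelled CCL5-/- over labelled WT, and the ratio of WT to CCL5-/- CPM in replicate 1 was -3.09. For Gbp2 the same values were -0.98 and -0.93, and for Gbp5 -0.28 and -0.31. Under the genotypes of the titles the F4/80hi members would be higher in CCL5-/-, the sign of the replicate 1 pair.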

How the data were processed

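Per the labels' protocols, Trizol was used for extraction and TruSeq RNA LT v2 for the libraries. The F4/80low table holds whole-number read counts deposited by the authors. The authors' deposited comparison table holds counts divided by their size factors (a normalised signal), a log2 fold change with its standard error, a p-value and an adjusted p-value. The F4/80hi table holds FPKM with bounds, per the file headers. The submitters' processing notes name Cufflinks 2.2.1, TopHat2 2.1.1, STAR, HTSeq and DESeq2, besides tools for read quality, and both human and mouse builds. Which tool and build made which table, and strand use, are not given in the sources used here, so overlapping genes cannot be separated. Of 20723 loci in the FPKM table, 99.02% overlapped the RefSeq GRCm38 gene of the same symbol. Depth behind FPKM is unknown.

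Genotype and gate follow the labels' cell population field, and replicate numbers the titles. The robust quasi-likelihood F test of edgeR 4.0.16 (R 4.3.3) was used on counts, two-sided, with TMM factors, filterByExpr and Benjamini-Hochberg adjustment over 12710 genes (threshold 0.05), with DESeq2 1.42.0 as an alternative, after tests on simulated data. Standard errors are the log2 change divided by the square root of F. Pair differences use log2 CPM with a prior count of 2. The members, gene lists and nearest-gene rule were chosen with earlier results of these data known; named genes were the members, Ccl5, all listed family and pathway genes as the text needed, and the 8 nearest genes. An item of the pathway is not reported here.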

Additional observations from a re-analysis of the deposited data

Results flagged for a closer look

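The genotype difference had opposite signs in the replicate pairs for all 9 tested members, higher in CCL5-/- in replicate 1 and lower in replicate 2, and this difference between the pairs was not tested, since each pair has 1 library per genotype. The gap between the pairs (replicate 1 pair minus replicate 2 pair, log2 CPM) was 3.93 for Iigp1, 3.37 for Gbp4, 1.88 for Igtp, 1.82 for Gbp7, 1.73 for Irgm2, 1.60 for Gbp3, 1.48 for Gbp5, 1.45 for Irgm1 and 1.09 for Gbp2. Over all tested genes the median gap was 0.02 and 5% of genes had more than 1.36, so 8 of the 9 members lay in that upper part and Gbp2 did not.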

How the results depend on the processing

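The pair medians of the members kept their sign and moved by at most 0.01 with DESeq2 size factors, without Rn45s and with a prior count of 0.5, and no scaling moved the median of all genes by over 0.1. The number of genes called for genotype was 0 with DESeq2 size factors, with no filter on low counts and without Rn45s, 1 in the DESeq2 Wald test, 23 in DESeq2 with the replicate block and 0 to 4 when 1 library was left out. With the replicate block in edgeR it was 10, and no member passed (log2 changes -0.48 to 0.55, lowest adjusted p = 0.949). The labels do not state that the numbers pair the samples. Deviations of same-numbered libraries from their group means correlated at 0.728. With the replicate block Gbp3 had 0.01, Iigp1 0.55 and Irgm1 0.03, and in DESeq2 with the block 0.06, 1.09 and 0.09, where edgeR without it gave values below 0. Leaving out 1 library gave log2 changes of -0.44 to 1.31 for Gbp2, -0.77 to 0.92 for Gbp3, -0.67 to 1.91 for Gbp4, -0.90 to 0.04 for Gbp5, -0.37 to 0.85 for Gbp7, -1.11 to 3.37 for Iigp1, -0.68 to 1.60 for Igtp, -0.68 to 0.90 for Irgm1 and -0.26 to 1.89 for Irgm2. The count of genes that differed by replicate number stayed within 1.5 times. The F4/80hi median of the members was -0.80 with a pseudocount of 5, -1.20 with 0.1 and -1.03 after rescaling to the same upper quartile. Depth limits WT replicate 1 most, where Iigp1 and Irgm2 had 16 and 14 reads.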

Other observations

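The arrangement of GAS-type letters followed by 2 bases and then ISRE-type letters, looked for after it was seen in Igtp, Irgm2 and Tgtp1, was searched in all 32851 RefSeq promoters on both strands. It stood in 5 of them (0.0152%), those of Igtp, Irgm2, Tgtp1, Tgtp2 and Gm12185, all IRG genes on chromosome 11. These genes are related copies, so the matches are not independent of each other.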
